A study of Mus musculus with 8 samples.

Results

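Cholesterol synthesis was followed through 7 genes in colon epithelial cells of mice that lack SMS2, the sphingomyelin synthase encoded by Sgms2, and of wild-type (WT) mice. The genes were 5 enzymes of the pathway (Hmgcs1, Idi1, Fdft1, Sqle and Lss) and 2 regulators of it (Insig1 and Srebf2). They were chosen by name, with earlier results of these data known. Each was found in the deposited table as 1 row annotated with its symbol alone. They are 7 of the 19505 genes with a single symbol, and all 7 were among the 13003 genes tested after the dimmest 33.3% were left out. All mice were C57BL/6J. The 4 groups were SMS2 knockout mice (labelled SMS2 KO) that drank 3.5% dextran sulfate sodium (DSS), a polymer that damages the colon's epithelium, for 2 days; WT mice given the same; untreated SMS2 knockout mice; and untreated WT mice. Each group had 2 samples on 1 Affymetrix array each, called biological replicates in the labels. The sources used here do not give how the knockout was made, the age and sex of the mice, or whether a sample was 1 animal or a pool.

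Cells make cholesterol from acetyl-CoA through the mevalonate pathway, and most of its enzymes are transcribed under the control of SREBP2, the protein of Srebf2. When membranes of the endoplasmic reticulum hold little cholesterol, SREBP2 is carried to the Golgi and cleaved, and the freed part enters the nucleus. When cholesterol is plentiful, Insig1 protein holds the carrier back, so that the pathway's transcripts tend to move as a group. Sphingomyelin, the product of SMS2, binds cholesterol in the plasma membrane, and the colon epithelium, which is renewed continually, needs sterol for new membranes.

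The DNA before the starts of Hmgcs1, Idi1 and Lss is shown because Hmgcs1 held the one match among the genes to the letters searched for the sterol regulatory element, the site to which SREBP2 binds. Idi1 and Lss are shown because their DSS differences were the farthest apart between the genotypes. The sequences are from RefSeq on the mouse build GRCm38.p6, all on the + strand, and cover the 250 bases before the annotated start, at chr13:119690101-119690350 for Hmgcs1, chr13:8885356-8885605 for Idi1 and chr10:76531355-76531604 for Lss. Capitals mark CCAAT boxes (CCAAT, or ATTGG on the other strand), which the factor NF-Y binds, and the element TCACNCCAC.
Hmgcs1: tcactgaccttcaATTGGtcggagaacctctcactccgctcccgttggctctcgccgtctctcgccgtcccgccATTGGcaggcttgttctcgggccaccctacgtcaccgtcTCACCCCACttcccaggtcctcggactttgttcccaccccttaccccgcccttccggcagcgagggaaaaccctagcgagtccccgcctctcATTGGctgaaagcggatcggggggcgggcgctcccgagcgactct
Idi1: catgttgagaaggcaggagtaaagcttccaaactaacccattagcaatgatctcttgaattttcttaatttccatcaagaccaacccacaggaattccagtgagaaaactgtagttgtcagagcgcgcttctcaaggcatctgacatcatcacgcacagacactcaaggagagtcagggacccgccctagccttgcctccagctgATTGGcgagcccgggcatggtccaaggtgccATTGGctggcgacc
Lss: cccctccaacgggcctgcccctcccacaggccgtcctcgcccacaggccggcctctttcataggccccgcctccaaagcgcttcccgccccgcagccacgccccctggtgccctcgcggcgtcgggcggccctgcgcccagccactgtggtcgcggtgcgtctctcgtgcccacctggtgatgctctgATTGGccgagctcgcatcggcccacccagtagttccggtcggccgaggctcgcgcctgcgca
Hmgcs1 held 3 CCAAT boxes and the element, which began 137 bases before the start and lay between the first and the second box counted from the start. Idi1 held 2 CCAAT boxes, 14 and 45 bases before the start, and Lss held 1 at 62 bases.

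Of the 7 genes, 5 had an entry in the RefSeq promoter table: Hmgcs1, Idi1, Lss, Insig1 and Srebf2. A CCAAT box on either strand was found in all 5, and in all 11 other sterol synthesis genes that had an entry, against 33.8% of the table's 32851 windows of the same length. The GC box GGGCGG, which SP1 binds, was found in all 5 genes and in 10 of the 11 others, against 32.7% of all windows. TCACNCCAC was found in 1 of the 5 genes (Hmgcs1) and in 0 of the 11 others, against 1.05% of all windows. The looser spelling TCACNCNAC, which contains the stricter one, was found in 1 of 5 and in 1 of 11, against 2.26%, and the E-box CACGTG in 1 of 5 (Insig1) and in 3 of 11, against 6.02%. The longer form of the element, with A before TCACNCCAC and C at its N, was found in 0 of 5 and 0 of 11, against 0.0731% of all windows, and ATCACGTGA, an E-box that SREBP also binds, in 0 of 5 and 0 of 11, against 0.277%. Both strands were searched for each motif. A match describes letters only, and no match says nothing about binding outside these letters or this window.

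**Figure D1:**
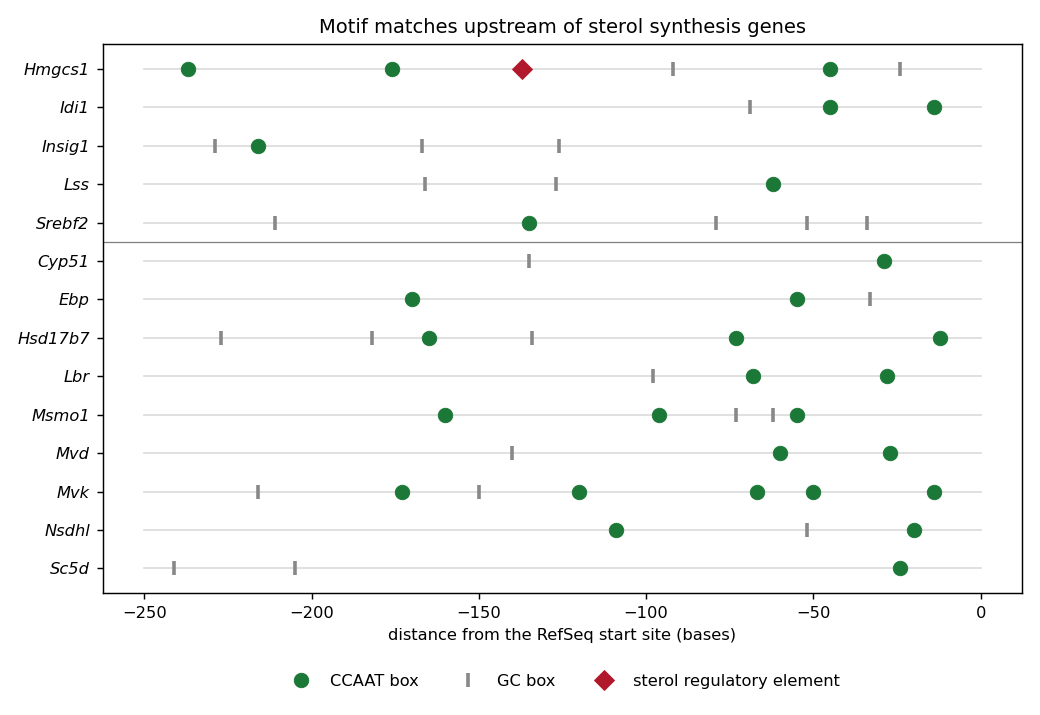
Positions of CCAAT boxes, GC boxes and sterol regulatory elements (TCACNCCAC) in the 250 bases before the start of 5 genes of the set and 9 other sterol synthesis genes with a single promoter entry; the x axis is the distance of a motif's first base from the start in bases, and each symbol is 1 match. Every gene drawn holds at least 1 CCAAT box, and the one TCACNCCAC match is that of Hmgcs1 at 137 bases.

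Sgms2 matched its labels. With DSS its log2 signal was 7.35 and 6.47 in SMS2 knockout against 11.27 and 10.90 in WT arrays. Without DSS it was 7.30 and 7.33 in knockout against 10.79 and 10.76 in WT arrays. The mean log2 signal of 12 epithelial markers was 15.36 to 15.63 in DSS arrays and 15.54 to 15.76 in untreated arrays. A mean over 9 fibroblast and matrix genes was 12.19 and 11.37 in knockout DSS, 11.40 and 11.96 in WT DSS, 10.23 and 9.83 in untreated knockout, and 8.32 and 8.67 in untreated WT arrays. A mean over 7 exocrine pancreas genes was 8.06 and 6.25 in knockout DSS, 12.73 and 6.40 in WT DSS, and 5.88 to 6.34 in the 4 untreated arrays, so both DSS replicate 1 arrays stood apart. The Y-linked genes Eif2s3y, Uty and Kdm5d averaged 8.99 to 9.95 in the 4 DSS arrays and 3.75 to 3.90 in the 4 untreated arrays. DSS therefore cannot be told apart from the sex of the animals, which the labels do not give, in any comparison of treatments. The mean of 8 smooth muscle genes was 14.29 and 12.19 in knockout DSS and 12.30 and 11.83 in WT DSS arrays. It was 13.13 and 13.33 in untreated knockout against 10.75 and 11.79 in untreated WT arrays. Higher in untreated knockout than in untreated WT without overlap were 8 of 8, against 17.5% of all genes. Past the adjusted threshold in that comparison were 0 of 8, against 0.392%. Of 9 proliferation genes, 4 fell with DSS in WT, against 1.12% of all genes, and 0 passed in the knockout, against 0.931%. The median difference of the 9 was -0.50 in the knockout and -1.36 in WT. Their interaction had a median of 0.63. It was positive for 8 of 9, against 48.5% of all genes, and passed for 0 of 9, against 0.0769%. Of 10 genes of mature colonocytes, 3 fell with DSS in the knockout, against 0.392% of all genes. In WT 5 fell, against 1.12%, and 1 rose, against 2.91%. The part of these differences in the results below was not tested, and fewer cells of a type cannot be told apart from less RNA per cell.

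None of the 7 genes passed the test in any of 7 comparisons (limma, Benjamini-Hochberg over 13003 genes, adjusted p under 0.05). The values had a repeated arrangement all the same. In SMS2 knockout mice the mean of 6 of 7 genes was higher with DSS than without, and in WT mice the mean of all 7 was lower with DSS than without. In untreated mice the mean of all 7 was lower in SMS2 knockout than in WT. Sqle gave the smallest p of the set in WT mice, with a DSS difference of -0.71 on the log2 scale. All values are log2 signals of 1 array, and they are compared only within a gene, since probes of different genes differ in brightness. The lowest value of the set was 9.54, in Sqle, well above the background, the level that 75% of negative-control rows did not exceed, which was 6.00 to 6.24 by array.

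Hmgcs1 makes HMG-CoA, the starting compound of the mevalonate pathway. Its signal was 15.28 and 15.79 in knockout DSS arrays and 15.27 and 15.70 in WT DSS arrays. It was 15.43 and 15.04 in untreated knockout arrays and 15.45 and 16.06 in untreated WT arrays. The DSS arrays of both genotypes covered nearly the same range, and both untreated knockout arrays lay below both untreated WT arrays. The DSS difference was 0.30 ± 0.30 in the knockout and -0.27 ± 0.30 in WT (SE, 2 arrays against 2), and knockout minus WT was -0.52 ± 0.30 without DSS.

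Idi1 encodes the isomerase that makes dimethylallyl diphosphate, the other building block of the isoprenoid chain. Its signal was 12.05 and 12.49 in knockout DSS arrays, against 11.57 and 11.64 in untreated knockout arrays. It was 11.08 and 12.19 in WT DSS arrays, against 11.90 and 12.26 in untreated WT arrays. The knockout groups did not overlap and the WT groups did, because the WT DSS arrays were 1.11 apart, the widest gap between replicates of any gene of the set. The lower of them was replicate 1, the array with the highest pancreas mean. Without the replicate 1 array of each DSS group, the DSS difference in the knockout, 0.67 over all arrays, was 0.89, and that in WT, -0.44 over all arrays, was 0.11.

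Fdft1 encodes squalene synthase, which joins farnesyl units in the first step that leads to sterols alone. Its signal was 13.38 and 13.63 in knockout DSS arrays and 13.40 and 13.26 in WT DSS arrays. It was 13.09 and 13.43 in untreated knockout arrays and 13.65 and 13.75 in untreated WT arrays. The untreated WT arrays were the highest of all 8, and the other 3 groups overlapped one another. The difference of DSS from untreated was -0.38 ± 0.23 in WT (SE), and that of knockout from WT was -0.45 ± 0.23 without DSS.

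Sqle encodes squalene epoxidase, which adds oxygen to squalene in a step that limits the rate of the later pathway. Its signal was 9.94 and 10.00 in knockout DSS arrays and 9.82 and 9.54 in WT DSS arrays. It was 9.83 and 9.72 in untreated knockout arrays and 10.30 and 10.47 in untreated WT arrays. Untreated WT was the highest group and did not overlap any other, knockout DSS came next, and the untreated knockout and WT DSS arrays overlapped. In WT mice the DSS difference of -0.71 had a 95% interval of -1.20 to -0.22, a signal 0.612 times that of untreated mice, with adjusted p = 0.125 by limma. In untreated mice the knockout signal was 0.652 times that of WT. The difference was -0.62, with a 95% interval of -1.11 to -0.12 and adjusted p = 0.504 by limma.

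Lss encodes lanosterol synthase, which closes the sterol rings. Its signal was 12.38 and 11.90 in knockout DSS arrays against 11.31 and 11.55 in WT DSS arrays. It was 11.80 and 11.78 in untreated knockout arrays and 11.60 and 12.39 in untreated WT arrays. The genotypes did not overlap with DSS and did overlap without it, since the untreated WT arrays were 0.78 apart. With DSS the knockout signal was 1.64 times that of WT, a difference of 0.71 with a 95% interval of 0.07 to 1.35 and adjusted p = 0.452 by limma. The difference was 0.35 without the replicate 1 array of each DSS group.

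Insig1, which is itself transcribed under SREBP control, encodes the protein that retains the SREBP carrier. Its signal was 12.11 and 12.45 in knockout DSS arrays against 12.06 and 11.77 in untreated knockout arrays. It was 12.18 and 12.23 in WT DSS arrays and 12.08 and 12.36 in untreated WT arrays. The knockout groups differed by 0.36 ± 0.24 (SE) without overlap, and the WT groups, which overlapped, by -0.01 ± 0.24. The sign of the WT difference was not settled, since it was 0.01 with the array medians set equal and 0.02 after quantile normalization.

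Srebf2, which encodes SREBP2, had a signal of 14.59 and 14.87 in knockout DSS arrays and 14.88 and 14.54 in WT DSS arrays. It was 14.78 and 14.87 in untreated knockout arrays and 15.24 and 15.12 in untreated WT arrays. As for Fdft1 and Sqle, the untreated WT arrays were the highest of all 8, and the other 6 arrays lay between 14.54 and 14.88. Its DSS difference was -0.09 ± 0.23 in the knockout and -0.47 ± 0.23 in WT (SE). It was the only gene of the set whose mean difference was negative in the knockout, and that difference was 0.02 after quantile normalization.

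**Figure D2:**
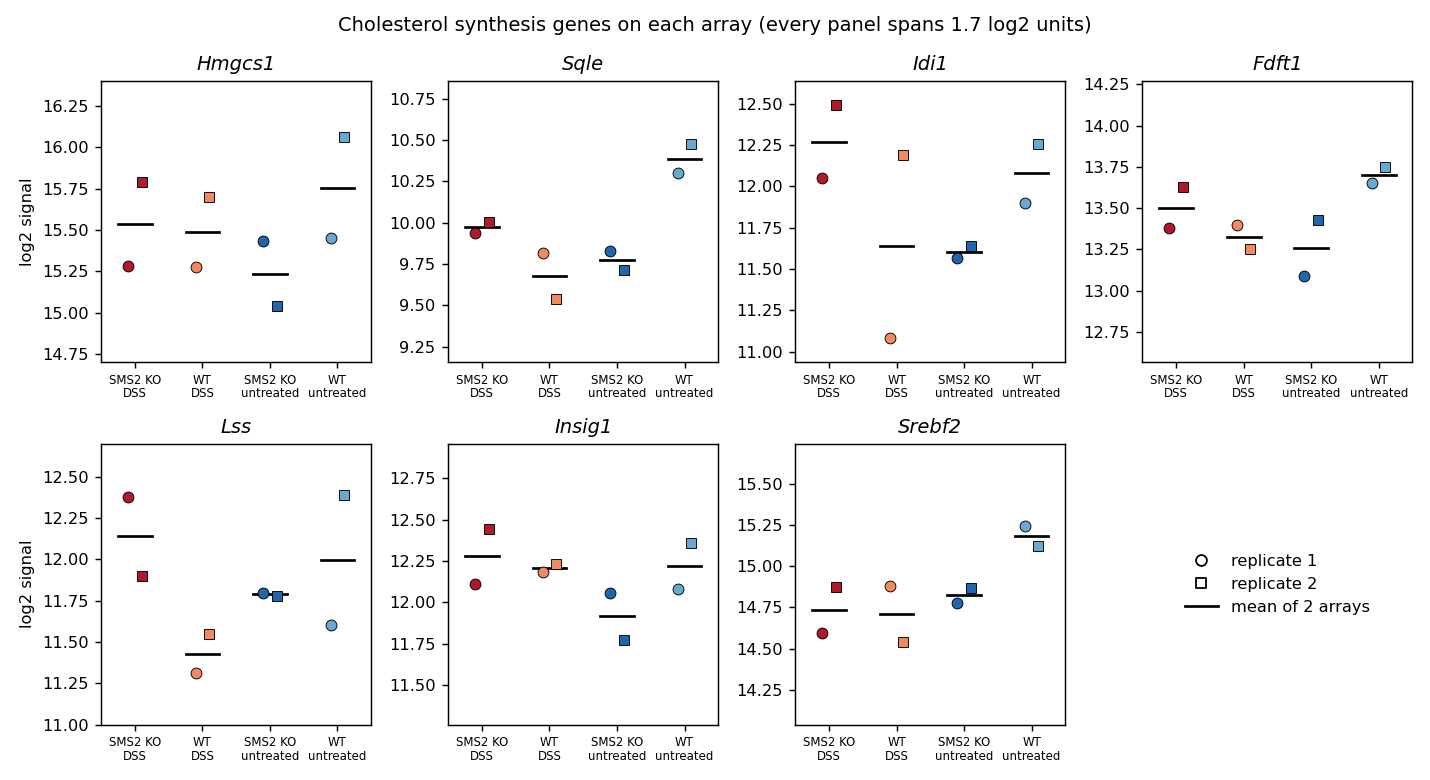
Deposited log2 signal of each of the 7 genes on each of the 8 arrays, in 1 panel per gene, with the groups on the x axis, a point for each array and a bar for the mean of the 2 arrays. Both untreated knockout arrays are below both untreated WT arrays in every gene except Lss, whose untreated WT arrays are 0.78 apart.

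Set against all genes, DSS in SMS2 knockout mice gave a median difference of 0.30 over the 7 genes and of -0.04 over all genes. The knockout DSS arrays lay above both untreated knockout arrays for 4 of 7 genes (Idi1, Sqle, Lss and Insig1), against 16.8% of all genes, and the sign was positive in 6 of 7, against 44.9% of all genes. Idi1 had the largest difference, 0.67 ± 0.34 (SE), with a 95% interval of -0.08 to 1.41. Past the adjusted threshold were 0 of 7, against 0.931% of all genes.

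DSS in WT mice gave a median difference of -0.44 over the 7 genes and of -0.05 over the 13003 tested. The 2 WT DSS arrays lay below both untreated WT arrays for 4 of 7 genes (Fdft1, Sqle, Lss and Srebf2), and 24.1% of all genes did so. The sign was negative in 7 of 7 genes, against 55.3% of all genes. The count past the adjusted threshold was 0 of 7, against 4.04% of all genes, and 1 of 7 (Sqle) had an unadjusted p under 0.05 in that direction, against 7.14%. The intervals were wide at 2 arrays a group, running from -1.20 to 0.07 for Lss and from -1.18 to 0.30 for Idi1, and each of these held both 0 and the difference found for Sqle.

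Between the genotypes with DSS, the median difference of knockout from WT was 0.17 over the 7 genes and -0.02 over all genes. The knockout DSS arrays lay above both WT DSS arrays for 2 of 7 genes (Sqle and Lss), against 16.1% of all genes. The sign was positive in 7 of 7, against 47.6% of all genes, though the differences of Hmgcs1, Insig1 and Srebf2 were 0.05, 0.07 and 0.02 and turned negative when single arrays were left out. Past the adjusted threshold were 0 of 7, against 0.354% of all genes. Without DSS the median was -0.45 over the 7 genes and -0.03 over all genes, and both knockout arrays lay below both WT arrays for 6 of 7 genes, all but Lss, against 20.6% of all genes. The sign was negative in 7 of 7, against 54.3% of all genes. The differences ran from -0.62 for Sqle to -0.21 for Lss, and that of Lss was 0.18 without the untreated WT replicate 2 array. Past the adjusted threshold were 0 of 7, against 0.392% of all genes, and Sqle alone had an unadjusted p under 0.05, against 2.16% of all genes in that direction. Each group's 2 arrays enter a DSS comparison and a genotype comparison, so the results of these comparisons are not independent of one another, and the untreated WT arrays, the highest for 3 of the genes, enter both the DSS comparison in WT and the genotype comparison without DSS.

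**Figure D3:**
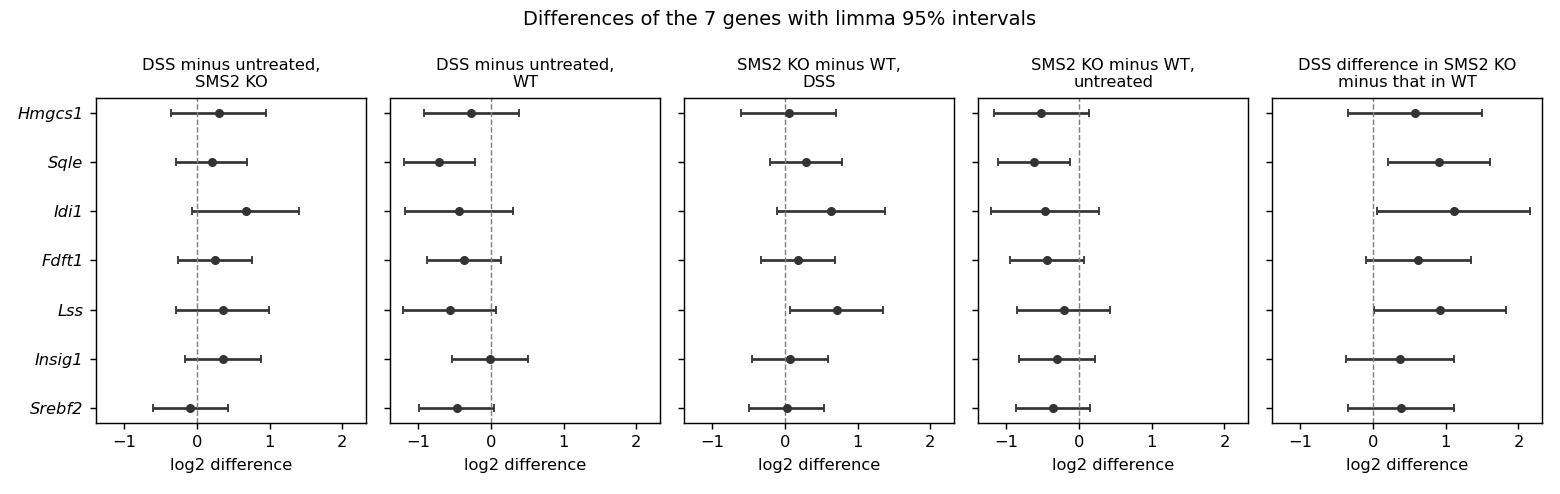
Difference of the log2 signal for each of the 7 genes in 5 comparisons, with points for the estimate and lines for the 95% interval from limma; differences are DSS minus untreated and knockout minus WT, and the interaction is the DSS difference in the knockout minus that in WT. The intervals of most differences cross 0, the exceptions being those of Sqle, Idi1 and Lss given in the text.

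The interaction asks whether the DSS difference itself differed between the genotypes, as knockout minus WT. It was positive for all 7 genes, with 0.57 for Hmgcs1, 1.11 for Idi1, 0.62 for Fdft1, 0.91 for Sqle, 0.92 for Lss, 0.37 for Insig1 and 0.38 for Srebf2. The median was 0.62 over the 7 genes and -0.01 over all genes, and 48.5% of all genes had a positive sign. For Sqle the 95% interval was 0.21 to 1.61, with adjusted p = 0.713 by limma. For Idi1 it was 0.06 to 2.16, with adjusted p = 0.886 by limma. For Lss it was 0.01 to 1.82, with adjusted p = 0.906 by limma. These 3 of 7 genes had an unadjusted p under 0.05 in the positive direction, against 1.88% of all genes, and past the adjusted threshold were 0 of 7, against 0.0769%. The signs of all 7 held under each of the 16 alternatives that gave a value, but the sizes moved when single arrays were left out. Idi1 gave 0.56 without WT DSS replicate 1 and 1.67 without WT DSS replicate 2. Without untreated WT replicate 1 the interaction was 1.31 for Lss and 0.88 for Hmgcs1, and without untreated WT replicate 2 it was 0.53 for Lss and 0.26 for Hmgcs1. Over all such fits it ran from 0.77 to 1.05 for Sqle, 0.45 to 0.79 for Fdft1, 0.20 to 0.54 for Insig1 and 0.21 to 0.55 for Srebf2. The ends of the last 2 ranges came without knockout DSS replicates 2 and 1 for Insig1, and without WT DSS replicates 2 and 1 for Srebf2. Sqle and Lss were also among the 302 genes (2.32% of those tested) whose arrays lay lower with DSS in WT and higher with DSS in the knockout, without overlap in either genotype.

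**Figure D4:**
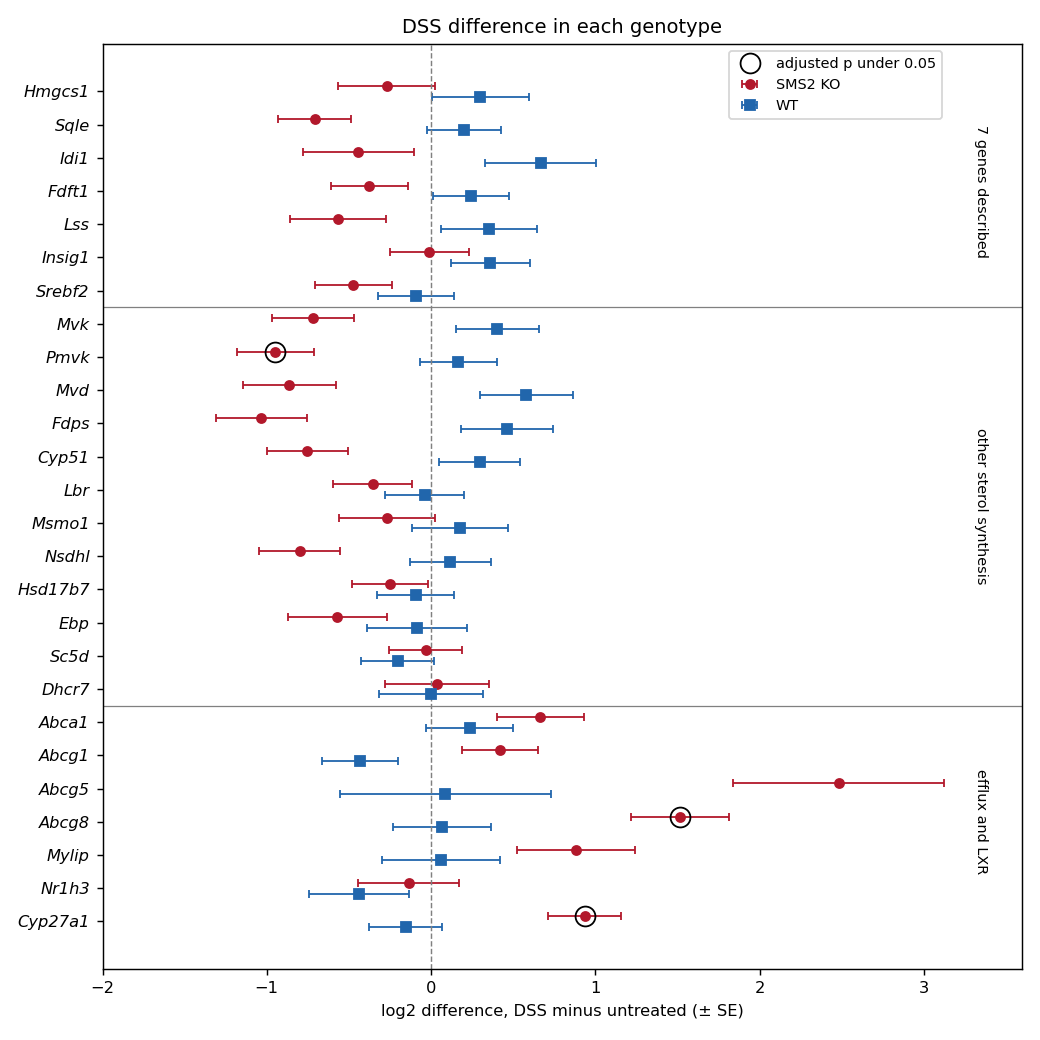
DSS minus untreated difference of the log2 signal (x axis) in SMS2 knockout mice (squares) and WT mice (circles). The genes are the 7 of the set, the 12 other sterol synthesis genes and 7 genes of sterol efflux and LXR. Bars are 1 SE, and rings mark differences with adjusted p under 0.05. The key drawn in the figure has the names of the genotypes swapped. The knockout point (square) lies to the right of the WT point (circle) for all 7 genes. It lies to the left for all 7 efflux and LXR genes. The 3 rings are on the WT circles of Pmvk, Abcg8 and Cyp27a1.

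Averaged over the genotypes, DSS gave a median difference of -0.07 over the 7 genes, with the widest at -0.28 for Srebf2, and past the threshold were 0 of 7 against 5.52% of all genes. Averaged over treatments, knockout minus WT gave a median of -0.14 over the 7 genes and past the threshold were 0 of 7, against 0.677% of all genes. The 2 genotypes entered the DSS average with opposite signs for 6 of 7 genes.

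Of the 16 other sterol synthesis genes listed, 12 were tested. Pmvk, phosphomevalonate kinase, fell in WT mice with DSS, as did 1.12% of all genes at the same threshold. It was the only one of the 12 to pass in any comparison. Its signal was 8.38 and 8.28 in WT DSS arrays against 9.40 and 9.15 in untreated WT arrays, a difference of -0.95 ± 0.23 (SE) with adjusted p = 0.0475 by limma. The call was kept in 5 of 17 alternatives, with adjusted p from 0.0293 to 0.333 by limma, and it was lost when any 1 untreated array or either WT DSS array was left out. In the knockout Pmvk was 9.08 and 8.73 with DSS against 8.82 and 8.67 without, and these groups overlapped.

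The list as a whole had a median DSS difference of 0.14 in knockout mice and of -0.64 in WT mice. In WT mice, 10 of 12 genes lay lower with DSS without overlap, against 24.1% of all genes. An unadjusted p under 0.05 in that direction was found for 6 of 12, against 7.14% of all genes, namely Mvk, Pmvk, Mvd, Fdps, Cyp51 and Nsdhl, which encode 3 steps of mevalonate use, farnesyl diphosphate synthase and 2 enzymes that demethylate lanosterol products. These genes other than Pmvk were named after their values were seen. Fdps had 9.97 and 9.71 in knockout DSS arrays against 9.22 and 9.53 in untreated knockout arrays, and 9.09 and 8.35 in WT DSS arrays against 9.68 and 9.82 in untreated WT arrays. Its DSS difference in WT was -1.03, with adjusted p = 0.0695 by limma. Leaving out the replicate 1 array of each DSS group leaves 1 array in each. The DSS difference in WT was then -1.40 for Fdps and -0.997 for Pmvk. In untreated mice 11 of 12 genes lay lower in the knockout than in WT without overlap, against 20.6% of all genes, with a median of -0.37 against -0.03 over all genes. The interaction had a median of 0.70 and was positive for 10 of 12 genes, against 48.5% of all genes. It passed the adjusted threshold for 0 of 12, against 0.0769% of all genes, and 6 of 12 had an unadjusted p under 0.05 in the positive direction, against 1.88%.

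Of 7 tested genes of sterol efflux, esterification and the sterol-sensing LXR receptors, 2 rose with DSS in WT mice, against 2.91% of all genes in that direction, and 0 passed in any other comparison. The median DSS difference of the list was 0.06 in knockout mice, with 4 of 7 positive, against 44.9% of all genes. In WT mice it was 0.88, with 6 of 7 positive, against 44.7% of all genes. Abcg8, which with Abcg5 forms the transporter that returns sterols to the gut lumen, rose, with 7.61 and 7.19 in WT DSS arrays against 6.05 and 5.72 in untreated WT arrays, with adjusted p = 0.015 by limma. Both untreated WT arrays lay below their background, so the difference is given as at least 2.40-fold, the WT DSS mean against the mean background of the untreated WT arrays. Cyp27a1, sterol 27-hydroxylase, rose to a mean of 9.05 ± 0.08 in WT DSS arrays, against 8.11 ± 0.12 in untreated WT arrays (SD, n = 2 each), a difference of 0.94 ± 0.22 (SE, adjusted p = 0.0395 by limma). In knockout mice, Abcg8 differed by 0.07 and Cyp27a1 by -0.16 with DSS. For Abcg8 both untreated knockout arrays, at 5.77 and 6.13, and knockout DSS replicate 1, at 5.64, lay below their background. Its difference of 0.07 is therefore largely one between floor values. The interaction was negative for all 7 genes, against 51.5% of all genes, with a median of -0.85. It passed for 0 of 7, against 0.0769% of all genes. Some of these signs rest on signals near the floor. Abcg1, at 5.38 to 6.19, lay below background on every array, and Abca1, at 5.72 to 6.85, was near it. The call in WT for Abcg8 was kept in 14 of 17 alternatives and lost without WT DSS replicate 1 or either untreated WT array. That for Cyp27a1 was kept in 8 of 17 and lost without any 1 WT array or any 1 untreated knockout array. Macrophages also express Cyp27a1. Of 5 macrophage and dendritic cell markers, 3 (Lyz2, Csf1r and C1qb) rose in the same comparison, against 2.91% of all genes, and Itgam differed by -0.18. The list means were 7.22 and 7.55 in WT DSS arrays against 5.72 and 5.55 in untreated WT arrays. In the knockout 2 of 5 (Lyz2 and C1qb) rose with DSS, against 0.538% of all genes. The list means there were 8.18 and 7.18 with DSS against 6.42 and 6.23 without. The part of macrophages in the Cyp27a1 result was not tested.

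Of 10 tested fatty acid synthesis genes, 1 fell in WT mice with DSS, against 1.12% of all genes in that direction. It was Fasn, fatty acid synthase. Its signal was 8.46 and 8.41 in WT DSS arrays against 9.43 and 9.76 in untreated WT arrays, a difference of -1.16 ± 0.23 (SE, adjusted p = 0.017 by limma). In the knockout it was 9.06 and 8.90 with DSS and 8.83 and 9.11 without, a difference of 0.01. Its interaction of 1.17 did not pass, with adjusted p = 0.449 by limma, so the DSS differences of the 2 genotypes were not shown to differ. The call in WT was kept in 13 of 17 alternatives and lost without any 1 of the 4 WT arrays.

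No gene passed in any comparison among 5 genes of SREBP processing, 7 of sterol uptake and transport and 4 of the branches of the mevalonate pathway. Scap, the SREBP carrier, had a DSS difference of -0.40 in knockout and -0.17 in WT mice, and Rnf145, a ubiquitin ligase of the endoplasmic reticulum, had -0.27 in knockout and -0.30 in WT mice. Stard4, a sterol carrier protein, had 0.21 in knockout and 0.28 in WT mice, and Tmem97, a regulator of sterol transport, had 0.07 in knockout and -0.77 in WT mice. Ggps1, geranylgeranyl diphosphate synthase, had 0.14 in knockout and -0.10 in WT mice, and Dhdds, which makes dolichol, had -0.40 in knockout and -0.19 in WT mice. The DSS differences in WT mice had medians of -0.17, -0.16 and -0.25 over the 3 lists, in the order given above.

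**Figure D5:**
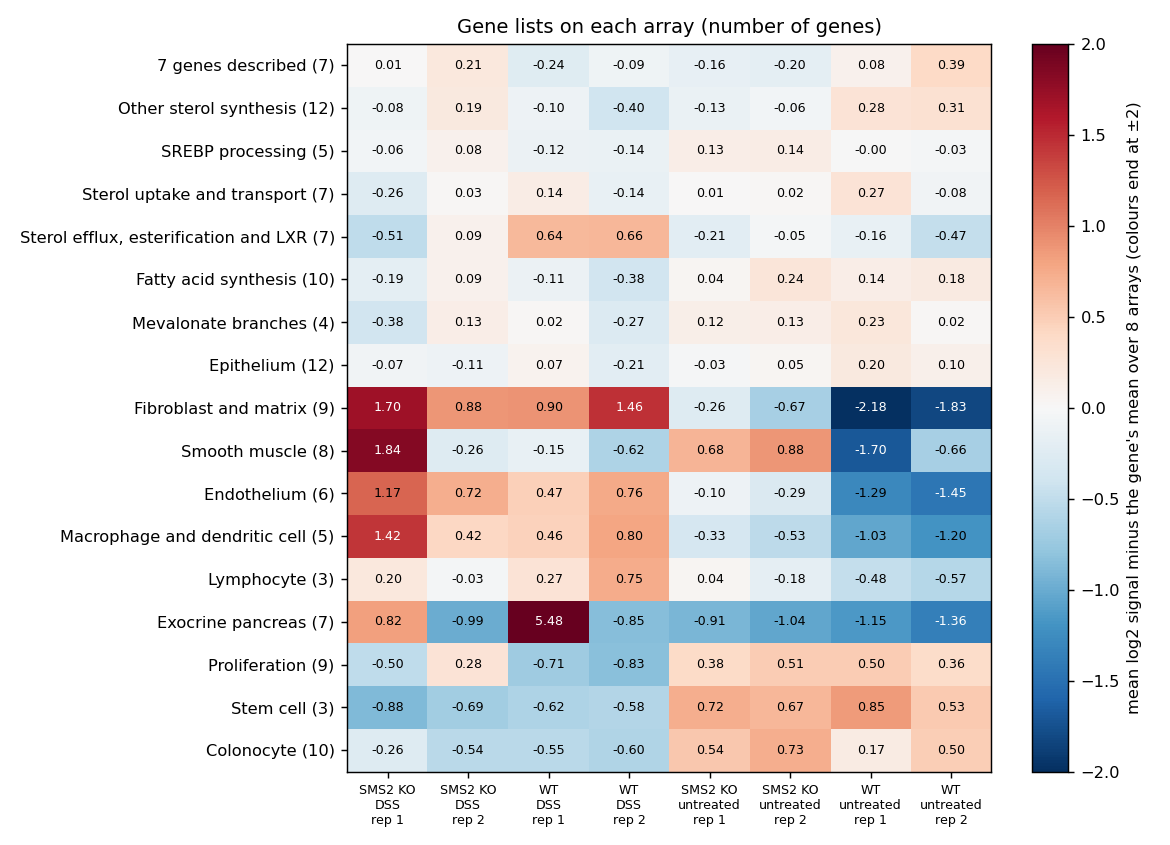
Heat map of gene lists (rows, with their number of genes) on the 8 arrays (columns), where each cell is the mean over the list of the log2 signal minus each gene's mean over the arrays, and colours end at 2 in either direction. The WT DSS arrays have the highest values of the efflux list, 0.64 and 0.66, the untreated WT arrays those of the other sterol synthesis list, 0.28 and 0.31, and WT DSS replicate 1 stands out for exocrine pancreas at 5.48.

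The genes of the set were not alike in every array. Over the 8 arrays, and after centring each gene on its own mean, Fdft1 was nearest to the mean profile of the 7, with a root mean square difference of 0.14 on the log2 scale. Idi1 was farthest, at 0.29, with Lss next, at 0.27. Fdft1 and Srebf2 were the closest pair, at 0.16, and Idi1 and Srebf2 the most distant, at 0.48. Of 12996 other genes tested, the 6 nearest to the mean profile were Pih1d2, Gm14151, Ccdc24, Slc10a7, Aadacl4fm4 and 2010016I18Rik, with root mean square differences from 0.07 to 0.10. Pih1d2, Ccdc24 and 2010016I18Rik lay above background on 0 of 8 arrays, and Slc10a7 and Gm14151 did so on all 8. Slc10a7, a membrane transporter, had a DSS difference of 0.19 in knockout and -0.43 in WT mice. The nearest single genes were Kcnj5 to Hmgcs1, Slc4a1 to Idi1, Arl16 to Fdft1, Itga6 to Sqle, Col16a1 to Lss, Wtap to Insig1 and Cth to Srebf2. The 12 other sterol synthesis genes ranked from 83 for Cyp51 and 279 for Lbr to 9603 for Fdps by the same measure. The measure also rewards small differences between arrays, and its points share the 8 arrays, so it is a description only.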

How the data were processed

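RNA of 8 samples was measured on 1 Affymetrix array each, in 4 groups of 2. The deposited values are log2 signals made with Affymetrix Expression Console, per the submitters' processing notes, which name no normalization or background correction. No further scaling was applied. Control rows (6640 of 28846) were left out, 1 row per gene was kept (the highest mean, for 55 genes with several), and the lowest 33.3% of 19505 genes by mean (under 5.15) were dropped, leaving 13003. Background was each array's 75th percentile of 5222 negative-control rows.

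A model of 4 group means over all 8 arrays was fitted with limma 3.58.1 in R 4.3.3, with empirical Bayes moderation (4 residual and 7.27 prior degrees of freedom), two-sided tests and Benjamini-Hochberg adjustment over all genes tested, with a threshold of 0.05. The pipeline was tested on simulated data. The p-values rest on the spread of these 8 samples, which may be partly technical, and the number of arrays limits the precision. No exact permutation test was run, since the smallest p it allows with 2 arrays a group is 0.333. The 7 genes and the gene lists were chosen with earlier results of these data known. From the lists, genes past the threshold were named (at most 6 of smallest p), or, with none past it, the 2 of highest mean. For likeness, the 6 genes nearest to the mean profile and the nearest to each gene were named.

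The alternatives covered the filter, scaling, the variance model, array weights, the arrays fitted, the row per gene, a threshold of 0.1 and a replicate block. Replicate numbers were not shown to pair samples: deviations from the group means correlated between -0.246 and 0.276 across groups.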

Additional observations from a re-analysis of the deposited data

Results flagged for a closer look

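For 6 sterol synthesis genes, the DSS and untreated groups did not overlap in either genotype and lay in opposite orders. In SMS2 knockout mice both DSS arrays lay above both untreated arrays, and in WT mice both DSS arrays lay below both untreated arrays. Among all genes tested, 2.32% did so, against 28.6% of the 7 genes (Sqle and Lss) and 33.3% of the 12 other sterol synthesis genes (Mvk, Mvd, Fdps and Cyp51). The difference between the genotypes was tested as the interaction in limma and passed for none of the 6 after adjustment over all genes. The 6 were picked by this same opposition of their arrays, so the sizes below describe that choice and are no further support. The interaction, as knockout minus WT on the log2 scale, was 0.91 for Sqle (adjusted p = 0.713 by limma), 0.92 for Lss (adjusted p = 0.906), 1.12 for Mvk (adjusted p = 0.565), 1.44 for Mvd (adjusted p = 0.412), 1.49 for Fdps (adjusted p = 0.37) and 1.05 for Cyp51 (adjusted p = 0.637). DSS and the sex of the animals cannot be told apart within either genotype, and fibroblast and matrix markers were higher with DSS in both genotypes, so their part in these values was not tested.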

How the results depend on the processing

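With 2 arrays a group, only large differences could pass. None of the 7 genes passed in any comparison under any alternative. The replicate block left 0 of the 7 genes past the threshold in every comparison, and with it the calls of Pmvk and Cyp27a1 for DSS in WT were lost while those of Abcg8 and Fasn were not. For DSS in WT mice, the count of other sterol synthesis genes past the threshold was 1 (Pmvk). It was 0 with no filter, with equal array medians, after quantile normalization, with trend and robust moderation, with the replicate block and with the 2 groups fitted alone, 2 at an adjusted p under 0.1, 4 without the replicate 1 array of each DSS group, and 0 to 1 when single arrays were left out.

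Signs of some of the 7 genes turned, and none of these values passed before or after. Among the scalings, DSS in WT was 0.012 for Insig1 with equal medians and 0.018 after quantile normalization, and DSS in the knockout was 0.018 for Srebf2 after quantile normalization. Without the replicate 1 array of each DSS group, DSS in the knockout was 0.047 for Srebf2, DSS in WT was 0.11 for Idi1 and 0.014 for Insig1, and knockout minus WT averaged over treatments was -0.086 for Idi1. Leaving out single arrays gave these ranges. For DSS in WT they were -0.58 to 0.037 (Hmgcs1), -0.997 to 0.11 (Idi1) and -0.15 to 0.13 (Insig1), and for DSS in the knockout -0.23 to 0.047 (Srebf2). For knockout minus WT with DSS they were -0.20 to 0.30 (Hmgcs1), -0.10 to 0.24 (Insig1) and -0.15 to 0.19 (Srebf2), and without DSS -0.60 to 0.18 (Lss). For DSS averaged over genotypes they were -0.14 to 0.17 (Hmgcs1), -0.16 to 0.39 (Idi1), -0.15 to 0.019 (Fdft1) and -0.30 to 0.089 (Lss), and for genotype averaged over treatments -0.20 to 0.36 (Idi1). The cause was not tested.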
